A study of Homo sapiens with 24 samples.

Results

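The 9 genes described here encode the cell's receptors for double-stranded RNA and the proteins that relay their signal. They were taken by their Ensembl identifiers from the 37416 genes of the deposited tables: EIF2AK2, IFIH1, RIGI (also named DDX58), DHX58, TLR3, ZBP1, NLRP1, MAVS and IRF3. Their levels were followed in the established human breast cancer lines BT549, HCC1806, MDAMB231 and MDAMB468, which the series calls triple-negative, meaning without hormone receptors or HER2 amplification. Each line carried a lentiviral short hairpin RNA that was either directed at ADAR1 (shADAR1) or non-targeting (shNT). With 3 biological replicates per arm, this gave 24 libraries in 8 groups. Both arms went through the same 24 h infection and the same 72 h of puromycin (2 µg/ml), so that every control also carried a hairpin and had been selected. The labels do not give the hairpin's sequence or say whether more than 1 hairpin was used.

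Double-stranded RNA is a by-product of viral replication, and it also forms inside cells where inverted repeats in a transcript fold back on each other. ADAR1 changes adenosine to inosine in such duplexes, and unedited duplexes are known to engage MDA5, the helicase encoded by IFIH1, and the kinase PKR, encoded by EIF2AK2. IFIH1 and RIGI signal through MAVS on the mitochondrial surface to the transcription factor IRF3, which turns on interferon genes, while PKR stops translation by phosphorylating its substrate eIF2α. Several of these sensors are themselves interferon-inducible.

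The start regions of some of these genes matched the core letters of an element through which interferon can act, or a variant of them. They are printed here for that reason. Of the 9 genes, 5 had an entry in the RefSeq promoter table (GRCh38.p14), which spans 250 bases before to 50 bases after the start of a gene: EIF2AK2, IFIH1, RIGI, TLR3 and MAVS. The core of the interferon-stimulated response element, GAAA repeated after 2 further bases of any kind, was searched on both strands (TTTC on the opposite strand). It was present in 3.57% of the 35116 promoters of that table. EIF2AK2, IFIH1 and TLR3 each held it, with IFIH1 holding 3 matches, of which 2 overlapped each other and 1 is shown, and TLR3 holding it on the opposite strand. RIGI held a form with 1 base between the repeats of GAAA, which was searched after the first result was seen and was present in 3.12% of the promoters. MAVS held neither. The windows shown cover chr2:37156971-37157040 (minus strand) for EIF2AK2, chr2:162318675-162318744 (minus strand) for IFIH1, chr4:186069096-186069165 (plus strand) for TLR3 and chr9:32526357-32526426 (minus strand) for RIGI. Each runs 5′ to 3′ along the gene, with the matched element in capitals.
EIF2AK2: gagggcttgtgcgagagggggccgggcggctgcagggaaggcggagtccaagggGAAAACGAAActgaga
IFIH1: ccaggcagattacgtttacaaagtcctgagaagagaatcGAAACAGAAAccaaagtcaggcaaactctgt
TLR3: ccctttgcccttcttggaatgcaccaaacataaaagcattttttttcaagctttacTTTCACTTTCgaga
RIGI: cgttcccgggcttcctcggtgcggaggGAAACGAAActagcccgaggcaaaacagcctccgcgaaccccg
A match describes these letters only and does not show that a factor binds there.

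Total counts per library ran from 10370645 to 97218217, which limits the precision of the least abundant members. ADAR itself was lower in shADAR1 in 12 of 12 same-numbered library pairs, at 19.8% to 42.5% of the shNT value, and its log2 change was -2.19 in MDAMB231, -1.94 in BT549, -1.59 in HCC1806 and -1.43 in MDAMB468. The epithelial markers EPCAM and KRT8 averaged 299.8 and 940.3 CPM (reads of a gene per 1e6 reads counted in its library) in HCC1806 shNT and 253 and 1434 CPM in MDAMB468 shNT. They were 8.95 and 467 CPM in MDAMB231 shNT, and BT549 shNT lacked both (0 and 0.684 CPM). Of the receptors behind the triple-negative label, ESR1 averaged 19.0 CPM in HCC1806 shNT, 6.85 CPM in MDAMB468 shNT and at most 0.462 CPM in the other shNT lines, PGR at most 0.737 CPM, and ERBB2 75.9 to 100.1 CPM. Transcripts of leukocytes were near the floor: 5 marker genes summed to 0.853 to 4.09 CPM over the groups, and the 2 markers of plasmacytoid dendritic cells to 0 to 0.162 CPM. Endothelial markers summed to 0.509 to 4.74 CPM. Fibroblast markers were not all near the floor, with sums of 0.0625 to 63.9 CPM. Most of the highest sum was LUM, at up to 59.4 CPM as a group mean. DCN and PDGFRA reached at most 2.49 and 2.05 CPM.

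Of the 9 genes, 8 were abundant enough over the 8 groups to be tested, and ZBP1 was not. NLRP1 passed on its counts in the other lines. In MDAMB468 it held 10 counts in shADAR1 and 17 in shNT, too few to judge a change there. MAVS was the 1 member called between the arms, lower in shADAR1 in MDAMB231, where 2.01% of all tested genes were called, and in the average over lines, where 2.96% were. The other 7 were called in no line, and no member was called in BT549, HCC1806 or MDAMB468, where 0.473%, 0.0468% and 0.0375% of genes were. These calls came from a fit that did not pair the replicate numbers. With the replicate number as a block, MAVS was also called in BT549 (edgeR adjusted p = 0.000914), where 5.14% of genes were. The lines differed from each other far more than the arms did: the share of a gene's variance in log2 CPM that lay between lines was 92.2% to 97.5% for EIF2AK2, IFIH1, RIGI, NLRP1 and MAVS, 75.8% for DHX58, 67.1% for TLR3 and 48.8% for IRF3. The share that lay between arms within a line was 5.14% for MAVS, 10.4% for IRF3 and at most 1.36% for the other tested members. Within groups lay 40.8% for IRF3 and 2.68% for MAVS. Over 12185 well-measured genes the medians were 92.4% between lines and 1.28% between arms. In all 8 tested members the order of the lines by mean level was the same in shADAR1 as in shNT. How often all genes kept their order was not computed, so this count does not set the members apart. For TLR3 and IRF3 no neighbouring lines in that order were called different in shNT.

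**Figure D1:**
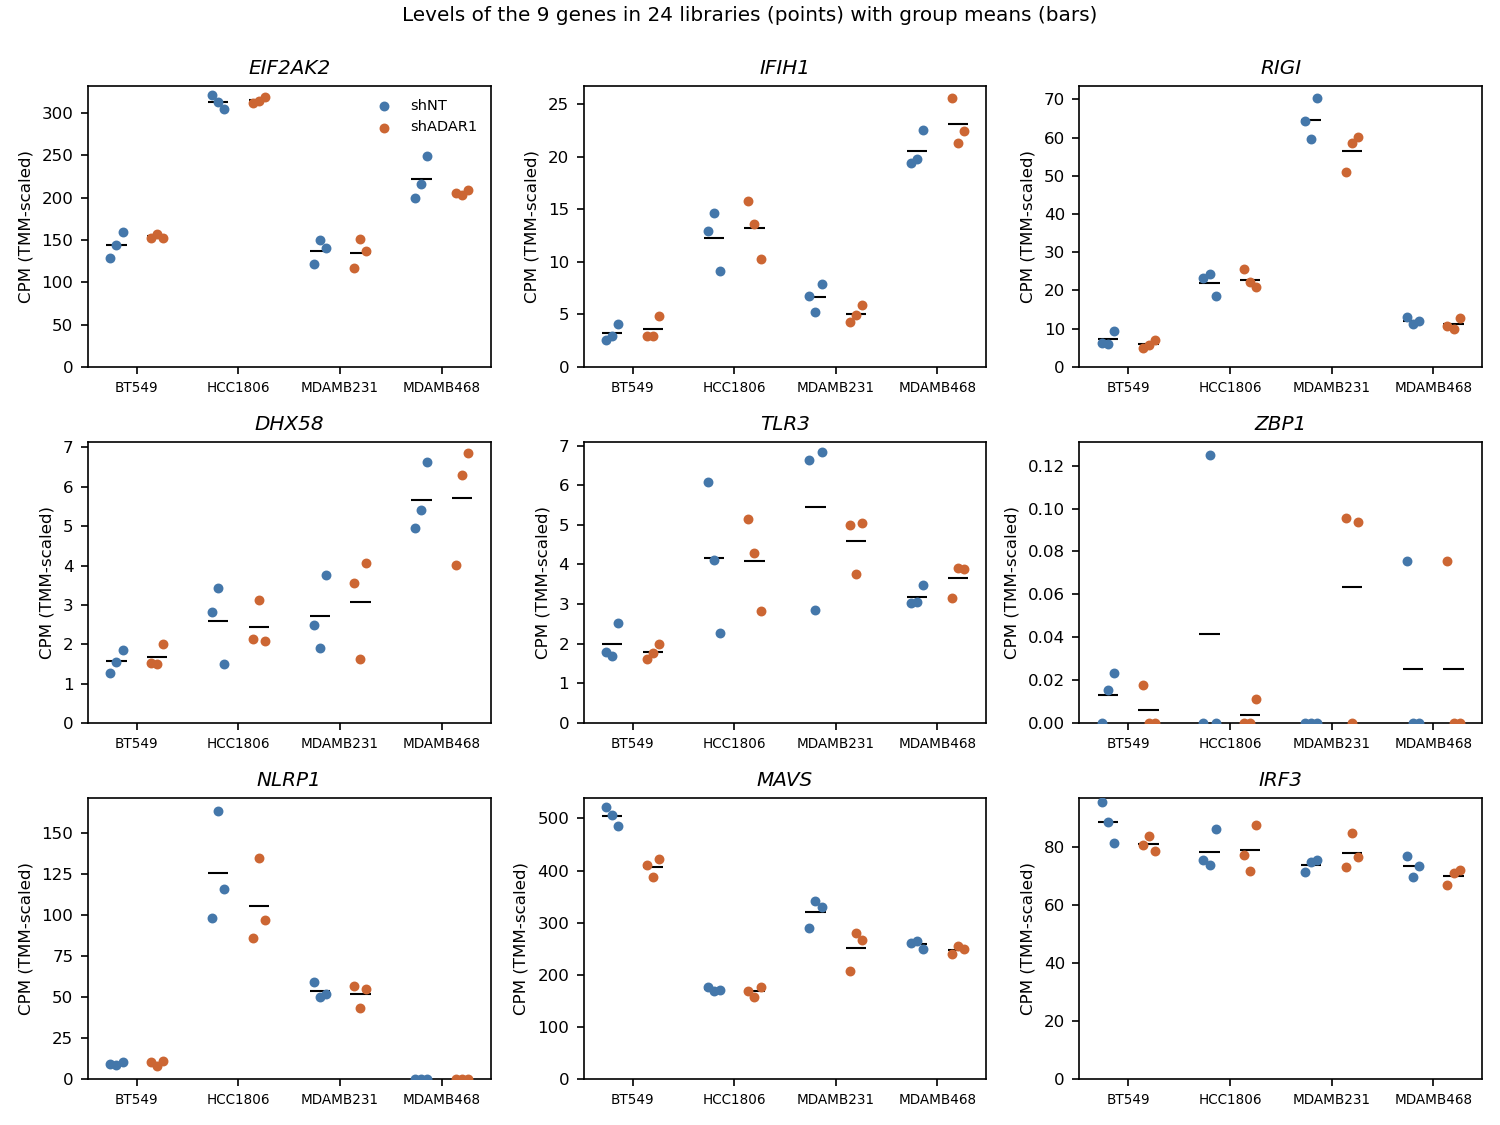
Levels of the 9 genes in CPM after scaling by the trimmed mean of M-values (TMM), 1 panel per gene with its own axis from 0, for the 4 lines with shNT in blue and shADAR1 in orange. Points are the 3 libraries of a group, with replicates 1 to 3 from left to right, and bars are group means. The lines stand apart in most panels, whereas the arms stand apart only for MAVS in BT549 and MDAMB231.

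EIF2AK2 (ENSG00000055332, chromosome 2, 37099210 to 37157065, minus strand, 17 exon blocks) encodes PKR. Per kilobase of gene length it had the highest mean of the 7 sensors in the shNT arm of BT549, HCC1806 and MDAMB468. In MDAMB231 shNT the mean of RIGI was higher (14.9 against 12.8 CPM per kilobase). The libraries overlapped there, with RIGI below EIF2AK2 in replicate 2 (13.7 against 13.9), and the difference was not tested. Before division by length EIF2AK2 had the higher mean in that group (137 against 64.7 CPM). In shNT, replicates 1 to 3 of EIF2AK2 gave 322, 313 and 304 CPM in HCC1806 and 199.7, 216 and 249.8 CPM in MDAMB468. BT549 shNT gave 128, 144 and 159 CPM, and MDAMB231 shNT gave 121, 149.5 and 141 CPM. These last lines overlapped and were not called different (log2 0.06, SE 0.0982, adjusted p = 0.609, from the quasi-likelihood F test of edgeR with the Benjamini-Hochberg method over 21352 genes, as for all adjusted p-values here unless another tool is named). HCC1806 exceeded MDAMB468 by 0.50 on the log2 scale (SE 0.0980, adjusted p = 0.000125), and MDAMB468 exceeded BT549 by 0.63 (SE 0.0983, adjusted p = 6.84e-06). In shADAR1 it gave 153, 157 and 152 CPM in BT549, 312, 314 and 319 CPM in HCC1806, 117, 151 and 137 CPM in MDAMB231, and 205, 204 and 209 CPM in MDAMB468. The arms overlapped in every line. The largest change, in MDAMB468, was -0.11 (SE 0.0979). The 95% intervals ended at rises of 1.23-fold in BT549, 1.16-fold in HCC1806, 1.13-fold in MDAMB231 and 1.07-fold in MDAMB468.

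The RIG-I-like helicases differed in which line carried most of them. RIGI (ENSG00000107201, chromosome 9, 32455705 to 32526324, minus strand, 18 exon blocks) senses short duplexes and RNA ends bearing phosphates. It was highest in MDAMB231, where shNT replicates 1 to 3 gave 64.2, 59.6 and 70.2 CPM. HCC1806 followed with 23.4, 24.4 and 18.5 CPM, then MDAMB468 with 13.0, 11.2 and 11.9 CPM and BT549 with 6.39, 6.09 and 9.42 CPM. No 2 lines overlapped, and each step of this order was called. MDAMB231 was 8.86-fold above BT549 (BT549 minus MDAMB231 log2 -3.15, SE 0.170, adjusted p = 1.98e-13).

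IFIH1 (ENSG00000115267, chromosome 2, 162267079 to 162318703, minus strand, 16 exon blocks), the sensor of long duplexes, followed another order. MDAMB468 shNT was highest with 19.4, 19.8 and 22.5 CPM, and HCC1806 shNT gave 13.0, 14.6 and 9.10 CPM. MDAMB231 shNT gave 6.74, 5.19 and 7.91 CPM and BT549 shNT 2.59, 2.90 and 4.09 CPM. No 2 lines overlapped here either, and each neighbouring pair was called, at log2 differences of 0.75 (adjusted p = 0.00468), 0.89 (adjusted p = 0.00187) and 1.05 (adjusted p = 0.000513).

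Per kilobase of gene length, the ratio of RIGI to IFIH1 in shNT was therefore 10.4 ± 1.41 (SD, n = 3) in MDAMB231 and 0.612 ± 0.0762 in MDAMB468. It was 2.38 ± 0.190 in BT549 and 1.91 ± 0.193 in HCC1806. MDAMB468 was the one line in which IFIH1 exceeded RIGI, in all 6 of its libraries (0.437 to 0.697 over both arms). In shADAR1 the ratio was 11.7 ± 0.983 in MDAMB231, 0.508 ± 0.0820 in MDAMB468 and 1.83 ± 0.238 in HCC1806, and each of these overlapped its shNT arm. In BT549 shADAR1 it was 1.75 ± 0.256, and the arms there did not overlap (1.52 to 2.03 against 2.19 to 2.56). Of all tested genes, 14.7% had separate arms in BT549, and the share among ratios of genes was not computed. The arms of RIGI and of IFIH1 taken singly overlapped in that line. With 3 against 3 libraries an exact permutation test cannot go below p = 0.1.

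**Figure D2:**
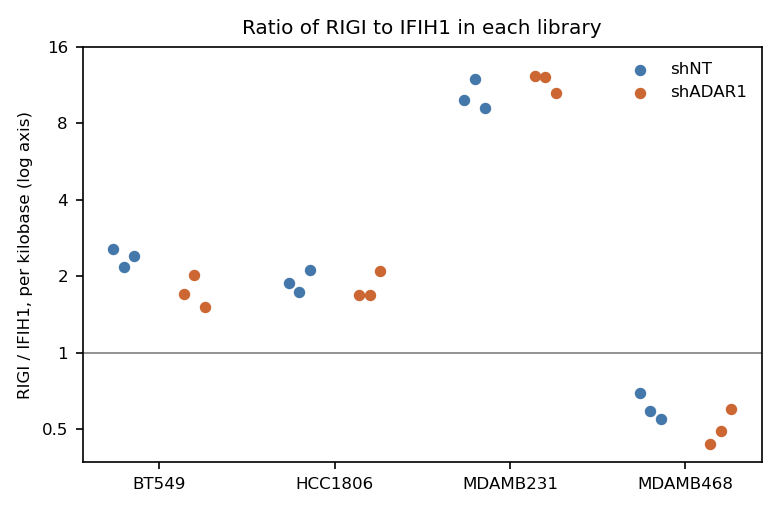
Ratio of RIGI to IFIH1, both per kilobase of gene length, in each of the 24 libraries on a log axis, with shNT in blue and shADAR1 in orange. The grey line marks equal levels. MDAMB231 lies between 9.23 and 12.3, and MDAMB468 lies under the line throughout.

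With knockdown, RIGI gave 51.1, 58.5 and 60.0 CPM in MDAMB231 shADAR1, 25.5, 22.2 and 20.8 CPM in HCC1806, 10.7, 10.0 and 12.9 CPM in MDAMB468 and 4.89, 5.71 and 7.05 CPM in BT549. It was below its same-numbered control in 9 of 12 pairs, and no line was called (lowest adjusted p = 0.727, in MDAMB231, log2 change -0.19, SE 0.155). The lowest unadjusted p among its lines was 0.0743, in BT549, at -0.30 (SE 0.162). IFIH1 gave 25.6, 21.3 and 22.5 CPM in MDAMB468 shADAR1, 15.8, 13.6 and 10.3 CPM in HCC1806, 4.31, 4.98 and 5.91 CPM in MDAMB231 and 2.98, 2.93 and 4.83 CPM in BT549. It was above its control in 7 pairs and below it in 5. Rises of IFIH1 beyond 1.56-fold in BT549, 1.48-fold in HCC1806, 1.08-fold in MDAMB231 and 1.53-fold in MDAMB468 lay outside the 95% intervals. For RIGI the same limits were 1.02-fold, 1.30-fold, 1.09-fold and 1.18-fold.

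DHX58 (ENSG00000108771, chromosome 17, 42101404 to 42112733, minus strand, 14 exon blocks) encodes LGP2, a helicase without signalling domains that tunes the other helicases. It was scarce: shNT replicates gave 4.96, 5.41 and 6.63 CPM in MDAMB468, 2.49, 1.89 and 3.76 CPM in MDAMB231, 2.81, 3.43 and 1.51 CPM in HCC1806 and 1.28, 1.56 and 1.86 CPM in BT549. MDAMB468 lay above every library of the other 3 lines and above MDAMB231 by 1.05 on the log2 scale (SE 0.343, adjusted p = 0.0104), a call that was lost without MDAMB231 shNT replicate 2 (adjusted p = 0.0708). The lower steps were not called. In shADAR1 its replicates gave 4.01, 6.30 and 6.86 CPM in MDAMB468, 3.55, 1.61 and 4.05 CPM in MDAMB231, 2.14, 3.12 and 2.07 CPM in HCC1806 and 1.53, 1.50 and 2.01 CPM in BT549. Log2 changes were 0.10, -0.08, 0.15 and 0.02 in BT549, HCC1806, MDAMB231 and MDAMB468, with SE of 0.327 to 0.347, so that rises up to 1.76-fold, 1.55-fold, 1.83-fold and 1.62-fold lay inside the intervals.

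TLR3 (ENSG00000164342, chromosome 4, 186069152 to 186088069, plus strand, 5 exon blocks), the endosomal receptor, was similarly low. Its shNT replicates gave 6.64, 2.85 and 6.83 CPM in MDAMB231, 6.07, 4.12 and 2.28 CPM in HCC1806, 3.03, 3.05 and 3.48 CPM in MDAMB468 and 1.79, 1.70 and 2.51 CPM in BT549. No step of this order was called, while the ends were (BT549 minus MDAMB231 log2 -1.43, SE 0.329, adjusted p = 0.000722). Also called were BT549 minus HCC1806 (-1.04, adjusted p = 0.00785) and MDAMB231 minus MDAMB468 (0.75, adjusted p = 0.0494). The former was lost without HCC1806 shNT replicate 1 (adjusted p = 0.0810), the latter in 18 of 24 fits that left out 1 library. In shADAR1 it gave 4.98, 3.75 and 5.04 CPM in MDAMB231, 5.15, 4.30 and 2.83 CPM in HCC1806, 3.14, 3.90 and 3.90 CPM in MDAMB468 and 1.61, 1.75 and 2.00 CPM in BT549. The arms overlapped in all 4 lines, and the log2 changes ran from -0.23 in MDAMB231 to 0.20 in MDAMB468 (SE 0.318 to 0.325).

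For every tested member except MAVS, a larger share of the variance lay within groups than between the arms of a line. Both shares sum over the 24 libraries, but the between-arms share uses only the 8 group means around their line means. It thus has fewer degrees of freedom. A larger share within groups therefore does not show that replicates differed more than arms. Over 12185 well-measured genes the medians were 5.66% within groups and 1.28% between arms. Of the variance in log2 CPM, 40.8% for IRF3, 31.6% for TLR3 and 23.9% for DHX58 lay within groups, against 10.4%, 1.36% and 0.305% between arms. For MAVS it was 2.68% within groups and 5.14% between arms. In part the spread within groups went with the replicate number. In HCC1806 replicate 3 was lowest for IFIH1, RIGI, DHX58 and TLR3 in both arms, and in BT549 and MDAMB231 replicate 3 was highest for the same 4 genes in both arms. In MDAMB468 the highest replicate differed between the arms for IFIH1, RIGI and TLR3, and in BT549 the lowest replicate differed for all 4 genes. DHX58 had its highest value at the same replicate number in both arms of all 4 lines. Such sharing was common in these libraries: over 10947 well-measured genes, 49.4% to 70.1% had the same replicate highest in both arms of a line, and 51.9% to 69.5% the same replicate lowest.

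ZBP1 (ENSG00000124256, chromosome 20, 57603846 to 57620576, minus strand, 9 exon blocks) senses left-handed duplexes and can start necroptosis. It had 20 counts in all 24 libraries together. It was above 0 in 9 libraries, with at most 6 counts, or 0.125 CPM, in HCC1806 shNT replicate 2. No comparison was possible at this depth. MDAMB231 shNT had 0 counts, which allows a level of up to 0.0295 CPM over its 3 libraries and counting error only.

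NLRP1 (ENSG00000091592, chromosome 17, 5499427 to 5619424, minus strand, 22 exon blocks), an inflammasome sensor that can respond to long duplexes, had the widest range among the lines. HCC1806 shNT gave 98.2, 163 and 116 CPM, MDAMB231 shNT 58.9, 49.9 and 51.9 CPM and BT549 shNT 8.80, 8.37 and 10.1 CPM. MDAMB468 shNT held 17 counts in 3 libraries, at 0, 0.104 and 0.212 CPM, and MDAMB468 shADAR1 held 10. All steps were called, with BT549 above MDAMB468 by 6.12 on the log2 scale (SE 0.369, adjusted p = 9.04e-13). HCC1806 exceeded MDAMB468 by 9.91 (SE 0.363, adjusted p = 2.31e-16), a value that rests on those few counts. In shADAR1 the gene gave 85.9, 134 and 96.7 CPM in HCC1806, 56.8, 43.5 and 54.8 CPM in MDAMB231 and 10.5, 7.80 and 10.8 CPM in BT549. The HCC1806 values were lower than the same-numbered shNT value in each of the 3 pairs, the arms overlapped, and the change was not called (log2 -0.25, SE 0.207, adjusted p = 1).

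MAVS (ENSG00000088888, chromosome 20, 3846799 to 3876123, plus strand, 7 exon blocks), the adaptor below RIGI and IFIH1, was the one member whose arms separated. In BT549 its shNT replicates gave 521, 507 and 486 CPM and its shADAR1 replicates 411, 387 and 422 CPM. In MDAMB231 shNT gave 289.6, 341 and 329 CPM and shADAR1 208, 281 and 267 CPM. All 3 shADAR1 libraries lay below all 3 shNT libraries in both lines, as either arm did for 14.7% and 14.2% of all tested genes. In HCC1806 shNT gave 177, 168 and 171 CPM and shADAR1 169, 158 and 177 CPM. In MDAMB468 shNT gave 261, 265 and 249 CPM and shADAR1 239.9, 255 and 249.6 CPM. The arms overlapped in both of these lines, where 7.58% (HCC1806) and 11% (MDAMB468) of all genes had separate arms.

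In MDAMB231 the mean fell from 320.1 ± 27.1 to 252 ± 38.8 CPM (SD, n = 3 per arm), or 78.8% of control, at a log2 change of -0.34 (SE 0.0907, 95% interval -0.53 to -0.16, adjusted p = 0.0484). That p sits at the threshold of 0.05. Leaving out 1 of the 24 libraries ended the call in 20 of 24 fits, the smallest change being -0.22 (adjusted p = 0.374) without MDAMB231 shADAR1 replicate 1. It was also lost with no filter on low counts (-0.35, adjusted p = 0.0913) and with only the MDAMB231 libraries (-0.35, adjusted p = 0.304). With the replicate number as a block the change was -0.35 (edgeR adjusted p = 0.00014), and DESeq2 gave -0.35 (adjusted p = 0.00152). In BT549 the means were 505 ± 17.7 and 407 ± 18.0 CPM, or 80.6% of control, at -0.31 (SE 0.0904, 95% interval -0.50 to -0.12), which was not called (adjusted p = 0.185). It was called with the block (-0.31, edgeR adjusted p = 0.000914) and by DESeq2 (-0.33, adjusted p = 0.00898). HCC1806 changed by -0.03 (SE 0.0906) and MDAMB468 by -0.06 (SE 0.0905), neither called.

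Averaged over the 4 lines, MAVS fell by 0.19 on the log2 scale (SE 0.0453, adjusted p = 0.0200), and it was lower in 10 of 12 same-numbered pairs, at 71.8% to 103.7% of the control. Without BT549 shADAR1 replicate 2 the average was -0.18 (adjusted p = 0.0531), while the block and DESeq2 kept it called (-0.19, adjusted p = 3.79e-05, and -0.20, adjusted p = 0.000188). The joint test of whether the 4 lines' changes differ was not called for MAVS (F = 3.23, unadjusted p = 0.0415, adjusted p = 1), and was called with the replicate block (F = 9.07, adjusted p = 0.0190), with which 4.69% of all genes were called. No other member was called in the joint test either, where 0.0234% of all genes were. At an unadjusted p under 0.05, edgeR found MAVS as the 1 member of 8 in BT549 (6.42% of all genes), in MDAMB231 (11.7%), in the average (12.8%) and in the joint test (4.44%), and no member in HCC1806 (4.35%) or MDAMB468 (3.76%). As 1 of 8, this count does not set the members apart from all genes. DESeq2 called 1 member, MAVS, in BT549 (1.4% of all genes), in MDAMB231 (3.8%) and in the average (4.94%), and 0 in HCC1806 (0.197%), MDAMB468 (0.197%) and the joint test (0.585%).

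**Figure D3:**
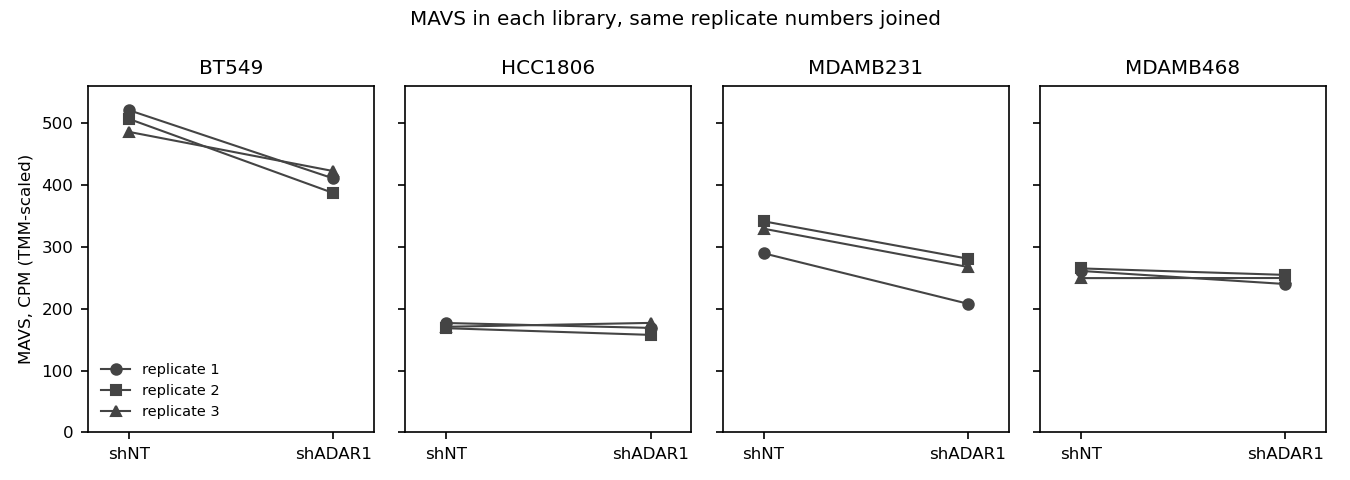
MAVS in CPM (TMM-scaled, axis from 0) in each library, 1 panel per line, with lines joining the shNT and shADAR1 libraries of the same replicate number. All 3 lines descend in BT549 and in MDAMB231, whereas HCC1806 and MDAMB468 stay level, and 10 of 12 joined pairs are lower in shADAR1.

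Between lines MAVS ran in the order BT549, MDAMB231, MDAMB468 and HCC1806, each step being called (log2 0.66, 0.31 and 0.59, adjusted p = 1.5e-06, 0.00508 and 5.75e-06). This order differed from that of RIGI and IFIH1, the helicases that signal through it: BT549 had the most MAVS and the least of both. In HCC1806, the line with the least MAVS, EIF2AK2 and NLRP1 were highest.

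IRF3 (ENSG00000126456, chromosome 19, 49659569 to 49665875, minus strand, 6 exon blocks) was the most even member. Its shNT replicates gave 95.4, 88.5 and 81.2 CPM in BT549, 75.4, 73.6 and 86.1 CPM in HCC1806, 71.3, 74.7 and 75.5 CPM in MDAMB231 and 76.9, 69.5 and 73.5 CPM in MDAMB468. The ends of this range differed by 1.21-fold. No neighbours were called different, although BT549 against HCC1806 (0.17, adjusted p = 0.092) became called in 9 of 24 fits that left out 1 library (adjusted p = 0.0335 to 0.0499). BT549 exceeded MDAMB231 by 0.26 (SE 0.0887, adjusted p = 0.0164) and MDAMB468 by 0.27 (SE 0.0884, adjusted p = 0.0109). Both calls were lost with upper-quartile scaling (0.18, adjusted p = 0.0771, and 0.19, adjusted p = 0.0535) and without BT549 shNT replicate 1 (0.20, adjusted p = 0.0915, and 0.22, adjusted p = 0.0643). The first was also lost without MDAMB231 shNT replicate 1 (0.24, adjusted p = 0.0562). In shADAR1 it gave 80.6, 83.8 and 78.5 CPM in BT549, 77.0, 71.8 and 87.6 CPM in HCC1806, 72.9, 84.7 and 76.5 CPM in MDAMB231 and 66.8, 71.1 and 72.1 CPM in MDAMB468. The arms overlapped in all 4 lines, and the log2 changes ran from -0.13 in BT549 to 0.08 in MDAMB231, neither called. Its exons share 734 bases, 19.3% of its length, with BCL2L12 on the opposite strand, and the sources used here do not state whether counting used strand, so reads within those bases cannot be told apart from those of BCL2L12.

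**Figure D4:**
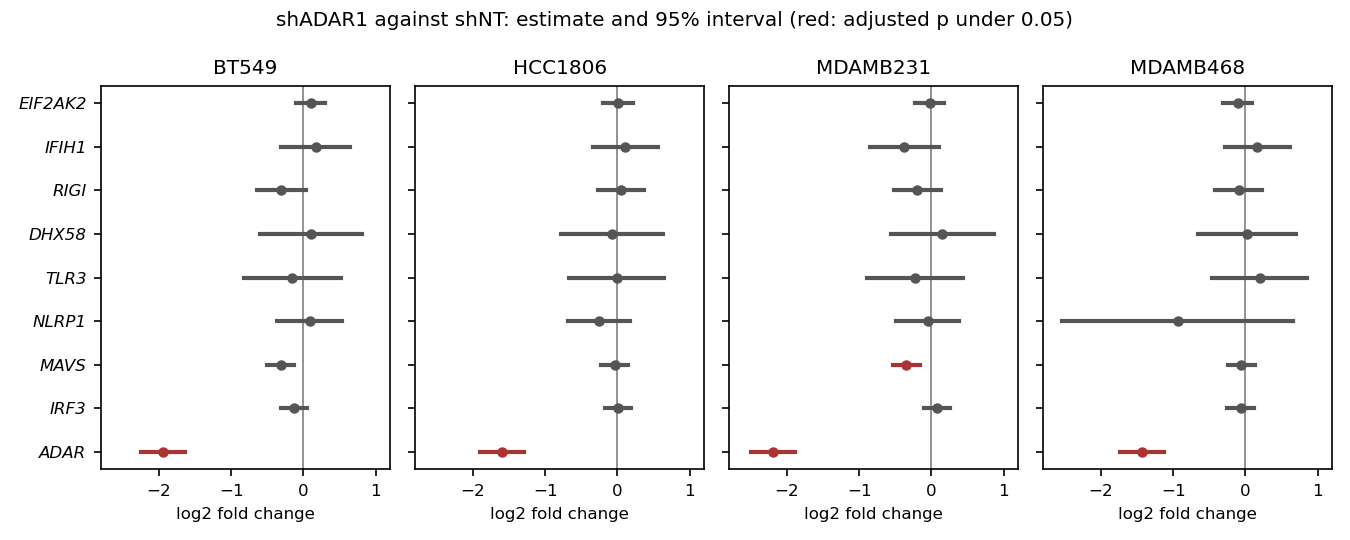
Log2 change of the 8 tested members and of ADAR in shADAR1 against shNT, 1 panel per line, as the estimate (point) and its 95% interval (bar). Red marks an adjusted p under 0.05: ADAR in all 4 panels and MAVS in MDAMB231. The other 7 members span 0 in every panel, and the widest bar is NLRP1 in MDAMB468, where the 2 arms held 10 and 17 counts.

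The median log2 change of the 8 tested members was -0.019 in BT549, -3.62e-05 in HCC1806, -0.12 in MDAMB231, -0.063 in MDAMB468 and -0.037 in the average. The medians in MDAMB468 and in the average include NLRP1, whose MDAMB468 estimate rests on 10 and 17 counts. The median of all tested genes in those comparisons lay between 0 and 0.018. In bulk RNA, fewer cells carrying a transcript and less of it per cell cannot be told apart.

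Among shNT lines, 6 of 8 members were called between BT549 and HCC1806 (63.5% of all genes), 6 between BT549 and MDAMB231 (56.5%), 7 between BT549 and MDAMB468 (61%), 5 between HCC1806 and MDAMB231 (59%), 6 between HCC1806 and MDAMB468 (62.9%) and 7 between MDAMB231 and MDAMB468 (61.8%). With 8 members, these counts do not set them apart from all genes, and each shNT group enters 3 of the 6 comparisons. Per kilobase, MAVS had the highest mean in 3 of the 4 shNT lines (42.9 in BT549, 27.2 in MDAMB231 and 22.0 in MDAMB468, in CPM per kilobase) and EIF2AK2 in HCC1806 (29.1). In MDAMB468 shNT the mean of EIF2AK2 was close, at 20.6, and it exceeded MAVS in replicate 3 (23.2 against 21.2). By mean, IRF3 was second in BT549, HCC1806 and MDAMB231 and stood below MAVS and EIF2AK2 in MDAMB468 (19.3 to 23.3). These orders between genes were not tested.

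The genes whose log2 CPM ran most like a member over the 24 libraries were picked by Pearson's r, as a description that mostly reflects the lines. They were NAA50, MSL2 and DNAJA4 for EIF2AK2 (0.982, 0.981 and 0.978), RIPK4, EPS15 and PRRG4 for IFIH1 (0.978, 0.973 and 0.972) and ECM1, ETV4 and MAPK14 for RIGI (0.982, 0.979 and 0.979). For NLRP1 they were NBL1, SERPINB8 and SH2D5 (0.988, 0.987 and 0.986), and for MAVS they were INPPL1, LMBR1 and REEP2 (0.987, 0.981 and 0.98). Weaker matches were found for DHX58 (FBXW7, QRICH2 and FAM13B, 0.916, 0.886 and 0.884) and IRF3 (MFSD3, ARRDC1-AS1 and NFS1, 0.844, 0.822 and 0.816). The points share the 4 lines, so r mainly counts how alike the line order is. After centring each gene on its line means, the r of RIGI with ECM1 was 0.0721, whereas that of MAVS with INPPL1 was 0.881.

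The other genes of the pathway were taken as a list of 58, of which 54 could be tested. Of these 54, edgeR called 1 in MDAMB231, RIPK1 (2.01% of all genes were called there), and 0 in the average over lines (2.96% of all genes). At an unadjusted p under 0.05 there were 10 of the 54 in MDAMB231, or 18.5% (11.7% of all genes), and 10 in the average (12.8% of all genes). DESeq2 called 4 in MDAMB231 (3.8% of all genes) and 2 in the average (4.94%). In BT549, HCC1806 and MDAMB468 edgeR called 0, with 3, 0 and 1 at an unadjusted p under 0.05 (6.42%, 4.35% and 3.76% of all genes) and 1, 0 and 0 called by DESeq2 (1.4%, 0.197% and 0.197%). The joint test called 0, with 3 at an unadjusted p under 0.05 (4.44% of all genes). RIPK1 encodes a kinase that joins TLR3 and ZBP1 to survival and death signals. In MDAMB231 it gave 63.7, 66.3 and 67.3 CPM in shNT and 44.8, 50.7 and 47.8 CPM in shADAR1, with no overlap, and fell by 0.46 on the log2 scale (SE 0.120, adjusted p = 0.0457), and no gene of the list was called in 15 of 24 fits that left out 1 library. It was 43.2, 43.1 and 39.5 CPM in BT549 shNT and 32.8, 30.6 and 34.0 CPM in BT549 shADAR1, a change of -0.37 (SE 0.120) that was not called (adjusted p = 0.301), and it changed by 0.02 in HCC1806 and -0.05 in MDAMB468. BT549 and MDAMB231 were also the lines in which MAVS arms separated.

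By role, the median log2 change in the average over lines lay between -0.11 and 0.03 in every class with 4 or more genes tested. It was 0.0035 in the 4 PKR partners, -0.11 in the 5 genes of the oligoadenylate system, in which 4 of 5 estimates were negative, and 0.012 in the 9 helicase regulators. It was -0.0072 in the 14 kinases and adaptors, 0.03 in the 4 ZBP1 effectors, -0.06 in the 7 inflammasome genes and -0.0024 in the 7 transcription factors. Of the 54, 24 estimates were positive in BT549, 31 in HCC1806, 19 in MDAMB231, 27 in MDAMB468 and 20 in the average, with medians of -0.015, 0.012, -0.090, -0.0044 and -0.020.

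Of 6 genes that IRF3 can switch on, 4 were at the floor in both arms and the other two were scarce. IFNB1, the interferon-beta gene, had at most 4 counts in any library, 10 in all shADAR1 libraries and 3 in all shNT libraries. IFNL1 had 14 and 7 counts, IFNL2 26 and 26, and CXCL10 13 and 16 (shADAR1 and shNT, 12 libraries each). None of these 4 could be tested. IFNL3 ranged from 0.115 to 0.740 CPM in shADAR1 and from 0.0880 to 1.05 CPM in shNT, and CCL5 from 0 to 1.36 CPM in shADAR1 and from 0.155 to 1.36 CPM in shNT; neither was called.

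With the replicate number as a block more genes of the list passed: 1 of 54 in BT549 (5.14% of all genes), 1 in HCC1806 (2.1%), 10 in MDAMB231 (11.4%), 0 in MDAMB468 (1.66%) and 12 in the average (13.2%). In BT549 it was RIPK1, at -0.37 (edgeR with the block, adjusted p = 0.00163). The 10 in MDAMB231 were higher for TARBP2, ZCCHC3, ZNFX1 and CHUK and lower for RNF135, TRIM65, TRAF3, UNC93B1, RIPK1 and STING1. The 12 in the average were higher for ZCCHC3, ZNFX1, CHUK, IL1B and IRF1, at 0.10 to 0.37 on the log2 scale. They were lower for DNAJC3, TRAF3, IKBKE, UNC93B1, RIPK1, CASP1 and STING1, at -0.58 to -0.14. IRF1, a transcription factor of interferon responses, was the 1 gene called in HCC1806, at 0.58 (edgeR with the block, adjusted p = 7.03e-05). Its replicates there were 34.9, 22.6 and 19.4 CPM in shNT and 52.5, 31.4 and 30.7 CPM in shADAR1, higher in each same-numbered pair although the arms overlapped. Without the block the change was 0.58 (SE 0.289, adjusted p = 1). These genes were singled out after their values were seen.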

How the data were processed

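RNA was extracted from the 24 cell cultures and sequenced after removal of ribosomal RNA, per the labels' protocols. Reads were aligned with STAR 2.5.1a and counted with featureCounts 1.4.6-p5 of the Subread package, per the submitters' processing notes, which also name bcl2fastq and edgeR. The genome build and the strand setting are not given in the sources used here. The start and end of all 9 members were the same as in GENCODE 29 on GRCh38. Each library's table, per the file headers, holds a whole-number read count per gene, the authors' CPM and the authors' RPKM. The deposited CPM equalled the count scaled to the library's total (largest difference 4.7e-11), and the deposited RPKM was that value per kilobase of listed length (largest difference 1.3e-10). Tests used the counts.

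The deposited counts of the 21352 genes passing filterByExpr over the 8 groups, out of 33972 with a symbol and 37416 in all, were fitted with edgeR 4.0.16 in R 4.3.3 (TMM scaling with factors of 0.924 to 1.12, quasi-likelihood F test, two-sided, 1 coefficient per group, all 24 libraries). P-values were adjusted by the Benjamini-Hochberg method over these genes, and an adjusted p under 0.05 is a call. The SE of a log2 change was taken as its size over the square root of F. Printed CPM are TMM-scaled, and CPM per kilobase divides them by the listed gene length. Log2 values for correlations and variance shares used log2 CPM. The script was tested on simulated data. Replicates are called biological in the labels; nothing says how the cultures were separated, so p-values measure the spread between these samples.

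All members and ADAR are named. From the list of 58 pathway genes those called by edgeR, with or without the block, are named, and for each member with a mean of at least 1 CPM the 3 genes with the highest Pearson correlation among genes whose mean log2 CPM is 2 or more. Those for TLR3 are not reported here. The members and lists were chosen with earlier results of these data known. No pair of replicates agreed within sampling noise (a lowest chi-square of 10.9 per degree of freedom).

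The arms of each line use the same replicate numbers. Deviations of same-numbered libraries from their group means correlated over the well-measured genes (mean log2 CPM of 2 or more) in all 12 pairs (0.232 to 0.8), and over all tested genes at 0.0794 to 0.338, with 2 of 12 under 0.1. On the well-measured genes the numbers were read as pairs within each line. Alternatives were DESeq2 1.42.0, the replicate block, scaling by RLE or the upper quartile, no filter or a minimum of 10 counts in every library, a fit to the compared libraries alone, and leaving out each library.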

Additional observations from a re-analysis of the deposited data

Results flagged for a closer look

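The change of MAVS in shADAR1 differed between the 4 lines when the replicate number was a block (F = 9.07, edgeR adjusted p = 0.0190), with falls of about the same size in BT549 and MDAMB231 (-0.31 and -0.34 on the log2 scale) and small values in HCC1806 and MDAMB468 (-0.03 and -0.06). Without the block the same test gave F = 3.23 (adjusted p = 1).

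The depth of the ADAR knockdown also differed between lines with the block (F = 10.1, edgeR adjusted p = 0.0129), ranging from -2.19 in MDAMB231 to -1.43 in MDAMB468. Without the block F was 5.70 (adjusted p = 0.622). ADAR was lowered most in MDAMB231 and BT549, the lines in which MAVS arms separated. Whether the size of the knockdown bears on the change of MAVS was not tested, as 4 lines give 4 points.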

How the results depend on the processing

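The number of members called in BT549 went from 0 to 1 with DESeq2 and with the replicate block, and in the joint test from 0 to 1 with the replicate block. In MDAMB231 it went from 1 to 0 with no filter and with only the libraries compared, and ran from 0 to 1 over fits without 1 library; the average also ran from 0 to 1. The pathway list in BT549 (0 called) had 1 with DESeq2, 1 with the replicate block and 1 with only the libraries compared, and in HCC1806 (0 called) 1 with the block. In MDAMB231 (1 called) it had 0 with upper-quartile scaling, 0 with no filter, 0 with only the libraries compared, 4 with DESeq2, 2 with at least 10 counts in every library, 10 with the block and 0 to 2 over fits without 1 library. In the average (0 called) it had 1 with RLE scaling, 2 with DESeq2, 2 with at least 10 counts, 12 with the block and 0 to 2 without 1 library. The cause was not tested. Within lines, the block, which pairs same-numbered libraries, moved the number of genes called from 101 to 1098 in BT549, 10 to 448 in HCC1806, 429 to 2434 in MDAMB231, 8 to 354 in MDAMB468, 632 to 2820 in the average and 5 to 1002 in the joint test. With DESeq2 they were 299, 42, 812, 42, 1054 and 125. Over the members' changes with knockdown, 1439 of 1465 alternative values had the same status as the main fit, called or not. Most of these were uncalled in both. The 23 that lost a call all belonged to MAVS in MDAMB231 or in the average, the only member changes called in the main fit. Another 3 gained a call. Between shNT lines 1427 of 1482 kept their status, called or not, 31 lost a call and 24 gained one. No called value reversed. MDAMB231 over MDAMB468 for TLR3 (0.75, adjusted p = 0.0494) was lost in 18 of 24 fits without 1 library. ADAR in HCC1806 was -1.60 but not called when only that line's libraries were used (edgeR adjusted p = 0.213). Depth limits ZBP1, and NLRP1 in MDAMB468; DHX58 and TLR3, with at least 27 and 72 counts per library, spread widely between replicates.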

Other observations

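Between the shNT arms of the lines, the 54 tested genes of the pathway list differed more often than not. Between BT549 and HCC1806, 42 of 54 were called by edgeR (63.5% of all genes were), 34 of them lower in BT549, with a median log2 difference of -0.43 (all genes -0.076). Between HCC1806 and MDAMB468, 39 were called (62.9% of all genes), 30 of them higher in HCC1806, with a median of 0.45 (all genes 0.041). Between HCC1806 and MDAMB231, 42 were called (59%), 29 higher in HCC1806, with a median of 0.33 (all genes 0.055). HCC1806 was thus the higher line for most of the called genes in its 3 comparisons, which share the HCC1806 shNT libraries. Over all tested genes HCC1806 was also the higher line for most of the genes called, but by a smaller majority. The gap between the list and all genes was not tested. Against BT549 it was higher for 7247 of 13548, against MDAMB231 for 6700 of 12599 and against MDAMB468 for 7198 of 13438. The other pairs had 38 called (BT549 and MDAMB231, 56.5% of all genes), 34 (BT549 and MDAMB468, 61%) and 37 (MDAMB231 and MDAMB468, 61.8%).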
